A study of Mus musculus with 24 samples.

Results

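Translation initiation factors were followed by their RNA in mouse CD4 T cells, at rest and after activation, with and without either of 2 enzymes that supply acetyl-CoA. The members were all protein-coding genes of the deposited table whose symbol in GENCODE mouse release M21 starts with Eif1 to Eif6, which gave 55 genes of 46981 rows. By factor number they were 5 genes of eIF1, 15 of eIF2, 14 of eIF3, 16 of eIF4, 4 of eIF5 and 1 of eIF6. The choice used symbols only and no measured value. All 55 passed the filter on low values in the limma fit of each cohort.

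RNA came from 24 libraries in 8 groups of 3, arranged in 2 cohorts that each had a wild-type (WT) group of its own. In the Acly cohort the knockout (KO) was labelled CD4-Cre with floxed Acly alleles. Its enzyme, ATP citrate lyase, splits citrate in the cytosol to give acetyl-CoA, and Cre driven by Cd4 also acts in cells of the CD8 lineage, because both lineages pass through a stage that expresses Cd4. In the Pdha1 cohort the KO was labelled Pdha1fl/fl CD4CreERT2. Pdha1 codes for the E1 alpha subunit of the mitochondrial complex that turns pyruvate into acetyl-CoA, and CreERT2 needs tamoxifen, whose schedule the sources used here do not give. Resting cells had no treatment and activated cells had been stimulated through CD3 and CD28 for 24 h. The sources used here do not give whether WT mice carried Cre or floxed alleles, how old the mice were, or whether replicates were separate mice, so each p-value reflects only how far these libraries vary. The variation was not only technical in the Acly cohort, where replicates of 1 group differed in the sex-linked genes Xist and Ddx3y.

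Initiation of translation starts when eIF2, loaded with GTP and the initiator tRNA, joins the small ribosomal subunit together with eIF1, eIF1A, eIF3 and eIF5. The cap-binding complex eIF4F, made of eIF4E, the helicase eIF4A and the scaffold eIF4G, brings this complex to the mRNA, eIF5B joins the large subunit, and eIF6 keeps free large subunits from joining early. Phosphorylation of the alpha subunit of eIF2 by 4 kinases blocks the exchange factor eIF2B and slows initiation, and 4E-binding proteins hold back eIF4E until mTOR signalling releases it. Resting T cells make little protein, and activation through the antigen receptor is known to raise protein synthesis and cell size.

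Promoter letters are shown for 4 members that rose on activation, because 3 of them (the eIF4F helicase Eif4a1, its scaffold Eif4g1, and Eif5a) hold the same letters. Promoters came from RefSeq on GRCm38.p6, which matched 43 of the 55 members with 56 start sites. The 12 without an entry were Eif1a, Eif2b3, Eif3e, Eif3h, Eif3i, Eif3j2, Eif4e1b, Eif4e3, Eif4ebp1, Eif4ebp3, Eif4g2 and Eif6. Only bases before a RefSeq start and outside all annotated exons are printed, 100 per gene, 5′ to 3′ on the strand of the gene. Capitals mark CACGTG in the first 3 and CTTCCGG, the reverse complement of CCGGAAG, in the last. In order, the stretches lie at chr11:69672563-69672662 (minus strand), chr16:20672623-20672722 (plus strand), chr11:69921411-69921510 (minus strand) and chr15:77970845-77970944 (minus strand). Eif5a had 6 RefSeq starts and the others 1 each. The stretches of Eif4g1 and Eif5a lie inside the GENCODE M21 bounds of the gene, between annotated exons. Those of Eif4a1 and Eif3d lie before the gene.
Eif4a1: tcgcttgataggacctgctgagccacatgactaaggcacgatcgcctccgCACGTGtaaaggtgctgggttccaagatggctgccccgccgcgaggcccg
Eif4g1: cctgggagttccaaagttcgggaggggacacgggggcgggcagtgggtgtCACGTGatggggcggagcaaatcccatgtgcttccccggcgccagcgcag
Eif5a: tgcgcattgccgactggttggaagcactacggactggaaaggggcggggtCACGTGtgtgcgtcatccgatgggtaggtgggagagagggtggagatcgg
Eif3d: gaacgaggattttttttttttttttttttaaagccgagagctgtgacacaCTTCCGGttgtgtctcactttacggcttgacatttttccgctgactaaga
The letters CACGTG, the E-box form bound by MYC and related factors, read the same on both strands and contain ACGTG, the core of the hypoxia response element. They stood within 250 bases before a start in 11 of the 56 member promoters (19.6%) and in 6.02% of all 32851 promoters of that length. By gene they were found in 9 of the 43 members, namely Eif1b, Eif3f, Eif3k, Eif4a1, Eif4e, Eif4g1, Eif4h, Eif5a and Eif5a2. The letters CCGGAAG, an ETS-type motif searched on both strands, stood in 12 of the 56 member promoters (21.4%) and in 6.91% of all. Eif5a, Eif5a2 and Eif1b held both. The core of an interferon-stimulated response element (GAAA repeated after any 2 bases, on either strand) stood in 2 of the 56 (3.57%), those of Eif2s1 and Eif3a, and in 2.98% of all. These are matches of letters, not sites shown to be bound.

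Depth was low: the libraries held 388902 to 1087675 recovered counts, and 1 count was worth 0.677 to 2.28 RPM (reads scaled to a library total of 1000000). A count of 0 allows up to 3 counts, which is 2.03 to 6.83 RPM per library and covers counting error only. As a measure of background, the summed RPM of 1685 receptor genes of the olfactory and vomeronasal families was 95330 to 109575 in the resting and 30101 to 40962 in the activated Acly libraries. Acly itself held 104, 111 and 109 RPM in stimulated WT and 11.3, 10.6 and 15 RPM in stimulated KO cells of its cohort, without overlap, and 5.8, 9.87 and 8.94 RPM and 8.0, 1.06 and 5.04 RPM at rest, near the floor. Pdha1 held 84.7, 40.8 and 5.35 RPM in stimulated WT and 30.4, 27.4 and 20 RPM in stimulated KO cells of its cohort, and 6.78, 3.14 and 6.01 RPM and 7.33, 0 and 25.9 RPM at rest. Its groups overlapped in both states. After activation the overlap came from WT activated 3 alone, a library that goes against its label in the activation markers below. A separation without that library is descriptive only. At rest the groups overlapped with or without KO resting 3, which also goes against its label. All 9 genes of a CD4 T cell marker list, Cd4 and Cd3e among them, were detected in every group. Markers of other cells were low but mostly present: the lists for CD8 and NK cells, B cells and myeloid cells summed to 29.1 to 82.1, 40.5 to 316 and 15.9 to 87.0 RPM per library, with Ncr1 at 0 in all libraries of 4 groups and Lyz2 and Cd79b each in those of 1. The erythroid and platelet list summed to 599 to 32766 RPM in the Pdha1 cohort and to 20.3 to 1198 RPM in the Acly cohort.

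A pair of Pdha1 libraries went against their labels in the activation marker list (Il2ra, Tfrc, Cd69, Myc, Mki67, Irf4 and Cd44). The library labelled Pdha1 KO resting 3 summed to 731 RPM on that list, while the other resting libraries of the cohort reached at most 148 RPM. The library labelled Pdha1 WT activated 3 summed to 114 RPM, while the other activated libraries of the cohort held 398 to 1468 RPM. Results of the Pdha1 cohort are therefore given with both libraries and without them. The pair was picked by activation state itself. Leaving it out thus tends to move resting and activated groups apart and to shrink the spread. Calls and p-values on activation without these libraries are descriptive only.

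Activation of Acly WT cells raised 45 of the 55 initiation factor genes and lowered 3 (limma on log2(RPM + 0.5), Benjamini-Hochberg adjusted over all 31311 genes tested, threshold 0.05). Over all genes, 21.4% were called higher, 23.8% lower and 45.2% in either direction. This split of 6700 higher and 7447 lower genes became 7705 and 4909 under TMM-style scaling and 5470 and 10227 under scaling to protein-coding genes outside the receptor families. The median log2 change was 2.88 over the members and -0.61 over all genes tested. In activated Acly KO cells 44 members rose, the same 3 fell and 8 were not called, beside 20.7% of all genes called higher, 26.7% lower and 47.4% in either direction. The median there was 2.50 over the members and -0.67 over all genes. In WT the sum of all members was 1162 to 1437 RPM at rest and 9828 to 10893 RPM after activation, and in KO it was 1079 to 1352 RPM and 9197 to 9624 RPM. As a share of the RPM of protein-coding genes outside the receptor families, the members made up 0.224% to 0.285% in resting WT and 1.36% to 1.46% in activated WT. Of the marker lists for other cells, the 7 B cell genes summed to 49.2 to 68.6 RPM at rest and 98.5 to 143 RPM in WT after activation (Cd79b at 0 in the latter). Of these 7 genes Ighm and Cd74 rose and 0 fell, and the other 5 had negative log2 changes. The 6 myeloid genes summed to 55 to 68.6 RPM at rest and 24.7 to 29.9 RPM after activation with none at 0, and 3 of them fell. The part of these lists in the rise was not tested. Fewer cells of a type and less RNA per cell cannot be told apart in such bulk samples, and an RPM is a share of the library, not an amount per cell.

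**Figure D1:**
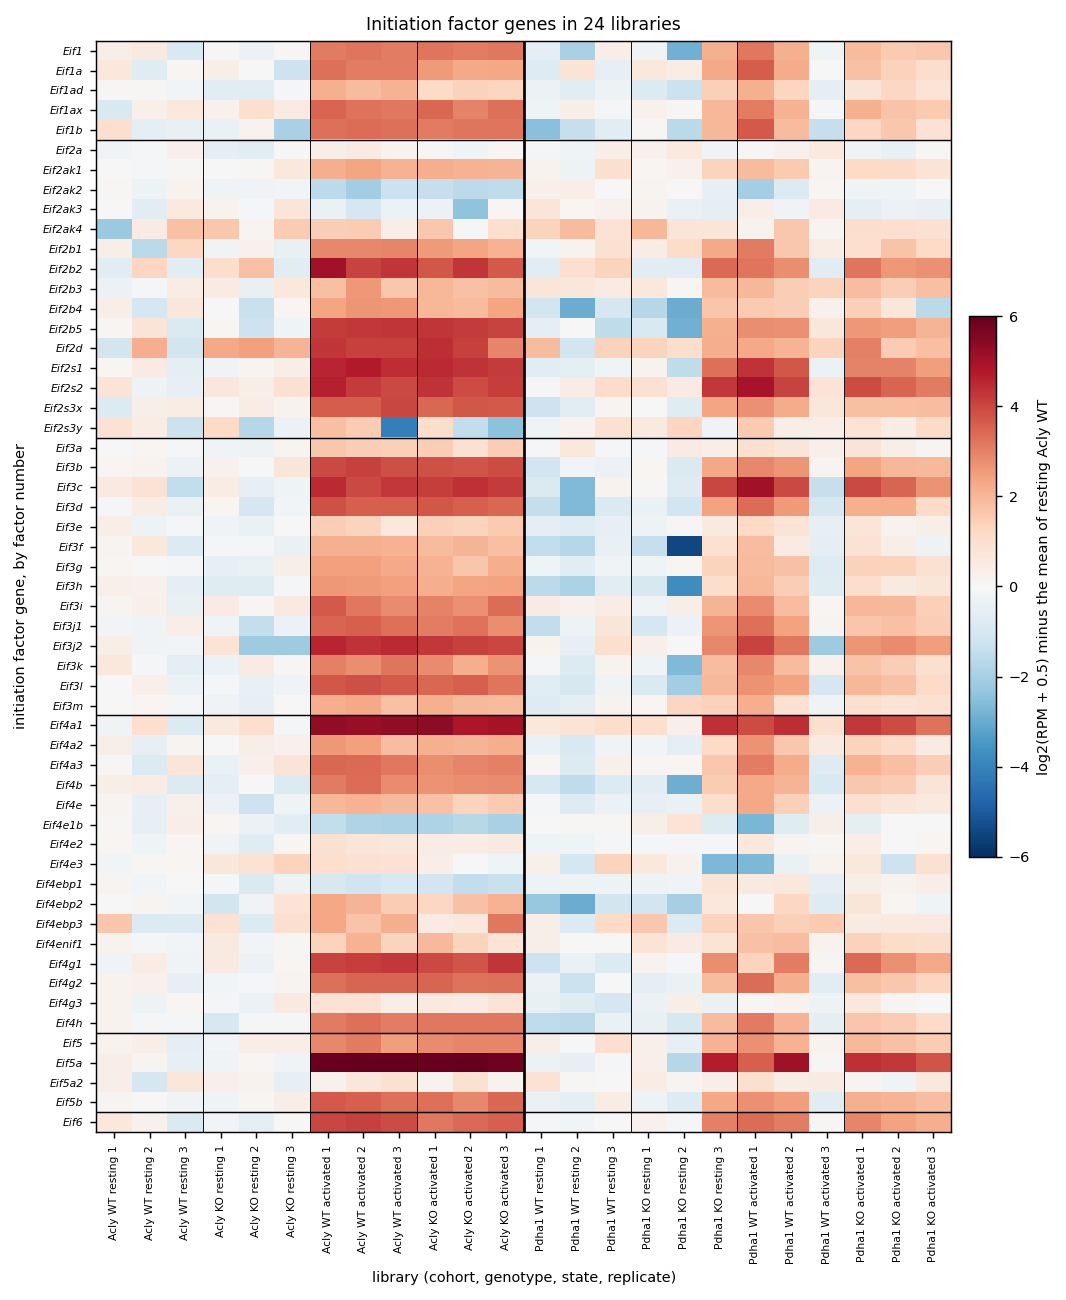
Level of each of the 55 initiation factor genes (rows, by factor number) in each of the 24 libraries (columns), as log2(RPM + 0.5) minus the mean of the 3 resting Acly WT libraries. The activated Acly columns are red in most rows, with Eif2ak2, Eif4e1b and Eif4ebp1 blue, and the columns labelled Pdha1 KO resting 3 and Pdha1 WT activated 3 look unlike the rest of their groups.

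The eIF1 genes rose without exception in the Acly cohort: all 5 were called higher in WT and in KO cells. Their log2 changes were 2.04 to 3.32 in WT. All ± values of log2 changes are standard errors from limma, with 3 libraries per group, or fewer where libraries were left out. Eif1, which guards the choice of the start codon, stood at 102, 115 and 41.8 RPM in resting replicates 1 to 3 of WT and at 692, 732 and 676 RPM in WT after activation. KO cells held 83, 62.1 and 83.8 RPM without stimulation and 728, 664 and 701 RPM with it. Its resting and activated values lay far apart in both genotypes, and its log2 change was 3.14 ± 0.25 (SE; adjusted p = 8.80e-13, limma) in WT and 3.20 ± 0.25 (adjusted p = 4.81e-13) in KO. The X-linked eIF1A gene Eif1ax went from 5.8, 14.1 and 17.9 RPM to 136, 115 and 107 RPM in WT, a log2 change of 3.32 ± 0.32. In KO it went from 13.7, 22.4 and 16.4 RPM to 130.3, 91.9 and 117 RPM. For all 5 genes every activated library lay above every resting one in each genotype, beside 23.1% of all genes in WT and 22.6% in KO.

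Among the 15 eIF2 genes, 10 rose and 1 fell in each genotype. Eif2s1, the alpha subunit on which the kinases act, stood at 26.7, 35.3 and 16.4 RPM in WT at rest and at 607, 682 and 546 RPM in WT after activation. In KO it went from 21.7, 27.7 and 32.9 RPM to 572, 518 and 465 RPM. The rise was 24-fold in WT and 18.8-fold in KO on the log2(RPM + 0.5) scale, with log2 changes of 4.58 ± 0.25 and 4.23 ± 0.25 (adjusted p = 2.17e-18 and 2.47e-17, limma). The beta subunit gene Eif2s2 went from 33.7, 15.5 and 13.4 RPM to 494, 355 and 307 RPM in WT. In KO it went from 30.9, 24.5 and 36.7 RPM to 392, 300.3 and 348 RPM, and its log2 change was 4.26 ± 0.28 in WT and 3.49 ± 0.28 in KO. Resting and activated libraries of both subunits did not overlap in either genotype.

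The gamma subunit is encoded on both sex chromosomes. Its X-linked copy Eif2s3x rose from 4.64, 11.3 and 11.9 RPM to 111, 112 and 145 RPM in WT, and from 9.14, 11.7 and 10.1 RPM to 98.2, 121 and 115 RPM in KO. Its log2 change was 3.75 ± 0.32 in WT and 3.37 ± 0.32 in KO. The Y-linked copy Eif2s3y was not called in either genotype. It stood at 15.1, 11.3 and 2.98 RPM in WT at rest, 30, 24.5 and 0 RPM in WT after activation, 19.5, 2.13 and 6.3 RPM in KO at rest and 17.4, 2.64 and 1.07 RPM in KO after activation. Its groups overlapped over a wide range, and its log2 change of -0.25 ± 1.70 in WT became positive without WT activated 3, at 1.68. Another Y-linked gene, Ddx3y, differed between the same libraries, with 74.4, 93.6 and 5.28 RPM in WT after activation and 78, 1.76 and 4.28 RPM in KO after activation, and its part in the values of Eif2s3y was not tested.

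All 5 subunits of eIF2B, the exchange factor that reloads eIF2 with GTP, rose in WT and in KO, with log2 changes of 2.01 (Eif2b3) to 4.47 (Eif2b2) in WT. Eif2b5, the catalytic subunit, went from 3.48, 5.64 and 1.49 RPM to 65.3, 67.8 and 71.1 RPM in WT and from 3.43, 1.06 and 2.52 RPM to 71.8, 65.8 and 59.2 RPM in KO. Its log2 change was 4.23 ± 0.42 in WT and 4.64 ± 0.42 in KO (adjusted p = 4.29e-11 and 3.34e-12, limma). Resting values of Eif2b2 lay at or under the floor of 3 counts in both genotypes, so the size of its change depends on the pseudocount.

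The 4 kinases of eIF2 alpha did not move together. Eif2ak1, the heme-regulated kinase HRI, rose from 18.6, 16.9 and 19.4 RPM to 83.6, 96.1 and 78.3 RPM in WT and from 18.3, 19.2 and 29.1 RPM to 84.9, 80.2 and 77.6 RPM in KO, a log2 change of 2.20 ± 0.28 in WT and 1.87 ± 0.28 in KO. Eif2ak2, the kinase PKR that senses double-stranded RNA, was lower in every activated than in every resting library of both genotypes, as 28.8% of all genes were in WT and 33.2% in KO. It stood at 70.1, 53.8 and 77.9 RPM in WT at rest and at 22, 15 and 26.5 RPM in WT after activation. In KO it stood at 57.4, 56.7 and 59.6 RPM at rest and at 25, 22.1 and 22.5 RPM after activation. The log2 change was -1.66 ± 0.30 in WT and -1.30 ± 0.30 in KO (adjusted p = 1.30e-05 and 3.92e-04, limma). The fall remained called in each of 24 alternatives per genotype, none of which removes background. The receptor genes used as a measure of background also fell, from 95330 to 106135 RPM in resting WT to 30101 to 40314 RPM in activated WT libraries. The part of the background in the fall of Eif2ak2 was not tested. Eif2ak2 shares exonic sequence with Gm26637 and n-R5s29 on the other strand.

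Eif2ak3, which encodes the endoplasmic reticulum kinase PERK, stood at 6.96, 4.23 and 10.4 RPM at rest and 4.99, 3.16 and 5.28 RPM in WT after activation. In KO it stood at 8.0, 6.39 and 11.4 RPM and 5.29, 0.881 and 7.49 RPM. Its resting and activated values overlapped and neither change was called. Eif2ak4, the amino acid sensing kinase GCN2, stood at 0, 2.82 and 7.45 RPM at rest and 5.98, 6.32 and 2.64 RPM in WT after activation, and at 6.86, 2.13 and 6.3 RPM and 6.8, 1.76 and 4.28 RPM in KO. These were 9 counts or fewer per library. Neither change was called, and of 24 alternatives 1 called a rise in WT, the fit without WT resting 3 (adjusted p = 0.0399, limma).

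A pair of eIF2 genes acts outside the usual pathway of the initiator tRNA. Eif2a was not called: it stood at 60.7, 66.6 and 85.4 RPM in WT at rest and at 89.7, 100.2 and 80.1 RPM in WT after activation, and its sign depended on the scaling. It was called higher under TMM-style scaling, in edgeR and in DESeq2 in both genotypes, and its change was negative under quantile normalization and under scaling to protein-coding genes. Eif2a shares exonic sequence with Serp1 on the other strand. Eif2d rose from 0, 4.23 and 0 RPM to 20, 17.4 and 17.6 RPM in WT, a log2 change of 4.15 ± 0.63. In KO it rose from 4.57, 5.32 and 3.78 RPM to 22, 17.7 and 7.49 RPM, a log2 change of 1.56 ± 0.63 (adjusted p = 0.040, limma), a call that was lost in 10 of 24 alternatives.

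All 14 genes of eIF3, the scaffold that holds the scanning complex together, rose in both genotypes. Their log2 changes ran from 1.14 (Eif3e) to 4.45 (Eif3j2) in WT and from 1.44 (Eif3a) to 5.28 (Eif3j2) in KO. Eif3j2 had only 2, 1 and 1 counts in resting WT and 3, 0 and 0 in resting KO libraries, so the size of its change is uncertain. Under 24 alternatives it ran from 4.02 to 5.16 in WT and from 4.57 to 6.86 in KO. Eif3l went from 38.4, 46.7 and 29.8 RPM to 508, 565 and 495 RPM in WT and from 34.4, 27.7 and 32.9 RPM to 418, 465 and 353 RPM in KO. Its log2 change was 3.77 ± 0.23 in WT and 3.68 ± 0.23 in KO (adjusted p = 7.69e-17 and 1.52e-16, limma). Eif3b, a core subunit, went from 10.4, 11.3 and 7.45 RPM to 156, 175 and 148 RPM in WT and from 11.4, 9.58 and 16.4 RPM to 142, 139 and 151 RPM in KO, a log2 change of 3.99 ± 0.29 in WT and 3.51 ± 0.29 in KO. Every activated library lay above every resting library for all 14. The subunits did not rise equally in the fit: Eif3a and Eif3e had the smallest changes in both genotypes, 1.5 ± 0.23 and 1.14 ± 0.27 in WT, and the call of Eif3e in WT was lost under quantile normalization and under scaling to protein-coding genes. Eif3j1 and Eif3j2 share 2015 stretches of 75 bases, 35% of those of Eif3j1 and 87.4% of those of Eif3j2, so the split of reads between them is uncertain.

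Of the 16 eIF4 genes, 12 rose and 2 fell in WT, and 11 rose and 2 fell in KO. The 3 parts of eIF4F rose together. Eif4a1, the helicase, stood at 6.96, 16.9 and 4.47 RPM in WT at rest and at 345, 322 and 349 RPM in WT after activation, a log2 change of 5.29 ± 0.33 (adjusted p = 5.72e-15, limma). In KO it went from 12.6, 17.1 and 7.57 RPM to 352, 247 and 276 RPM, a log2 change of 4.56 ± 0.33. Its paralog Eif4a2, whose locus also holds small nucleolar RNA genes, rose by 2.31 ± 0.29 in WT and 1.94 ± 0.29 in KO on the log2 scale, from 25.6, 14.1 and 22.4 RPM to 123, 113 and 74.7 RPM in WT and from 19.5, 25.6 and 24 RPM to 90.4, 84.7 and 91.8 RPM in KO. The 95% interval of the change was 4.61 to 5.97 for Eif4a1 and 1.72 to 2.90 for Eif4a2 in WT, and these intervals did not overlap. The difference between paralogs was not tested.

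Eif4e, which binds the cap, rose from 58.3, 36.8 and 64.3 RPM to 209.6, 220.4 and 203 RPM in WT and from 40.1, 21.3 and 44.3 RPM to 177, 132 and 157 RPM in KO. Its log2 change was 2.02 ± 0.27 in WT and 2.18 ± 0.27 in KO. The scaffold Eif4g1 rose by 4.16 ± 0.32 and 3.92 ± 0.32. Eif4g2 (DAP5), a scaffold paralog that does not bind eIF4E, went from 90.1, 93.8 and 55.3 RPM to 774, 872 and 891 RPM in WT and from 69, 74 and 86.4 RPM to 867, 743 and 767 RPM in KO, a log2 change of 3.43 ± 0.22 in WT and 3.37 ± 0.22 in KO. The remaining scaffold, Eif4g3, was not called in either genotype, at 0.70 ± 0.31 (adjusted p = 0.0604, limma) in WT and 0.61 ± 0.31 (adjusted p = 0.0984) in KO, and it was called higher by edgeR and by DESeq2 in both.

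The 3 inhibitors of eIF4E moved in different directions in WT cells. Eif4ebp1 fell from 59.5, 46.7 and 52.3 RPM to 27, 23 and 27.4 RPM in WT, and from 48.2, 28.8 and 43 RPM to 23.5, 18.6 and 20.4 RPM in KO. Every activated library was lower than every resting library of its genotype, with log2 changes of -1.02 ± 0.30 (adjusted p = 0.00575, limma) and -0.90 ± 0.30 (adjusted p = 0.0134). The direction held in each alternative, but the call was lost under TMM-style scaling, in edgeR and in DESeq2 in both genotypes, and in KO also without KO resting 1 and without KO activated 2. Eif4ebp2 rose instead, from 27.9, 31.1 and 25.4 RPM to 144, 115 and 81 RPM in WT and from 12.6, 24.5 and 50.6 RPM to 67.1, 95.5 and 119 RPM in KO, with log2 changes of 1.96 ± 0.34 and 1.85 ± 0.34. Eif4ebp3 was near the floor, at 2.32, 0 and 0 RPM at rest and 3.99, 2.37 and 3.52 RPM in WT after activation and at 1.14, 0 and 1.26 RPM and 0.755, 0.881 and 7.49 RPM in KO, and its call in WT (adjusted p = 0.0447) was lost in 10 of 23 alternatives.

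Of the other cap-binding genes, 1 fell, 1 rose and 1 was not called. Eif4e1b, best known from oocytes, fell from 18.6, 12.7 and 23.9 RPM to 5.98, 4.74 and 4.4 RPM in WT and from 19.5, 13.9 and 11.4 RPM to 4.53, 5.29 and 4.28 RPM in KO, log2 changes of -1.73 ± 0.45 and -1.54 ± 0.45 (adjusted p = 0.00171 and 0.00492, limma). DESeq2 did not call the fall in KO. The receptor genes used as a measure of background were lower in the activated libraries too. Protein-coding genes outside those families held 50.5% to 55.1% of RPM in resting and 72.3% to 74.8% in activated Acly WT libraries. Scaling to them therefore deepens any fall, so the call of Eif4e1b under it in both genotypes does not bear on the background. The part of the background in the falls of Eif4e1b and Eif4ebp1 was not tested. Eif4e2, the repressive cap binder 4EHP, rose by 0.76 ± 0.25 in WT and 0.75 ± 0.25 in KO, calls that were lost in 5 of 24 alternatives in WT and 4 in KO by limma. These were quantile normalization, scaling to protein-coding genes and limma without trend and robust in both genotypes, the fits without WT resting 2 and without WT activated 1 in WT, and the fit without KO resting 2 in KO. Eif4e3 was near the floor and not called.

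Eif5a had the largest rise of all members in both genotypes by limma. The gene encodes the only known hypusine-bearing protein besides its paralog, and the protein is now known mainly for helping elongation and termination. It stood at 43.1, 38.2 and 23.9 RPM in WT at rest and at 2088, 2362 and 2155 RPM in WT after activation. In KO it was 29.8, 37.4 and 29.1 RPM at rest and 2119, 2379 and 1971 RPM after activation. The groups lay far apart, with a 63.7-fold rise in WT and a 66.4-fold rise in KO (log2 changes of 5.99 ± 0.22 and 6.05 ± 0.22; adjusted p = 8.10e-24 and 5.51e-24, limma). The paralog Eif5a2 was not called: it stood at 11.6, 4.23 and 14.9 RPM at rest and 11, 15 and 17.6 RPM in WT after activation, and at 11.4, 10.7 and 6.3 RPM and 10.6, 17.7 and 10.7 RPM in KO, with overlapping groups. Eif5b, the GTPase that joins the subunits, went from 23.2, 21.2 and 17.9 RPM to 269, 253 and 207 RPM in WT and from 17.2, 22.4 and 26.5 RPM to 209, 156 and 227 RPM in KO, a log2 change of 3.52 ± 0.26 in WT and 3.14 ± 0.26 in KO. Eif5, which triggers GTP hydrolysis by eIF2, rose by 2.83 ± 0.27 and 2.70 ± 0.27. Eif6 went from 22.1, 16.9 and 7.45 RPM to 234, 247 and 219.5 RPM in WT and from 12.6, 9.58 and 13.9 RPM to 133, 154 and 177 RPM in KO, a log2 change of 4.0 ± 0.30 in WT and 3.64 ± 0.30 in KO.

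**Figure D2:**
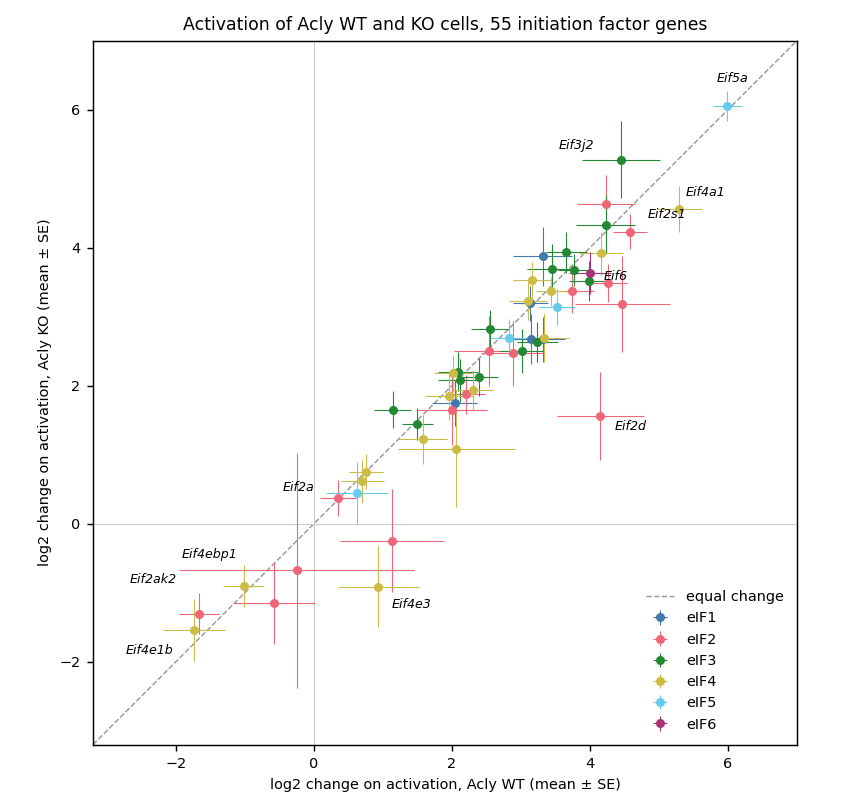
Log2 change on activation of each of the 55 genes in Acly WT cells (x axis) and Acly KO cells (y axis), with the standard error of each as bars and colours for the factor number. Most genes lie close to the line of equal change, from Eif5a at the upper right to Eif2ak2, Eif4e1b and Eif4ebp1 at the lower left, and Eif2d and Eif4e3 lie below it.

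Other genes of translation were read from lists chosen by function. Of 18 initiation factors and regulators of initiation without an Eif symbol, 13 rose and 0 fell in activated Acly WT cells and 12 rose and 0 fell in KO. Pdcd4, Paip2 and Impact were among the regulators. The counts of all lists here stand beside 21.4% of all genes called higher and 23.8% lower in WT, and 20.7% and 26.7% in KO. Pabpc1, the poly(A)-binding protein that contacts eIF4G, rose by 3.40 ± 0.24 and 3.33 ± 0.24 on the log2 scale, and Abce1, which recycles ribosomes, by 3.25 ± 0.26 and 3.19 ± 0.26. Of 15 elongation and release factors, 13 rose and 1 fell in each genotype. The member that fell was Eef2k, the kinase that inhibits eEF2, at -1.49 ± 0.36 in WT and -1.04 ± 0.36 in KO. Dhps and Dohh, the 2 enzymes that put hypusine on eIF5A, both rose, by 2.22 ± 0.52 and 3.03 ± 0.78 in WT and by 2.51 ± 0.52 and 3.27 ± 0.78 in KO. Of 14 genes that signal to initiation, 8 rose and 0 fell in WT and 9 rose and 1 fell in KO. Mtor itself rose by 3.44 ± 0.59 and 2.24 ± 0.59, and the gene that fell in KO was Deptor, an inhibitor of mTOR, at -1.05 ± 0.31. Of 10 translation factors of the mitochondria, 7 rose in WT and 6 in KO, and 0 fell. The median log2 changes of these lists in WT were 2.18, 3.04, 1.47 and 2.66, in the order given, beside -0.61 over all genes.

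**Figure D3:**
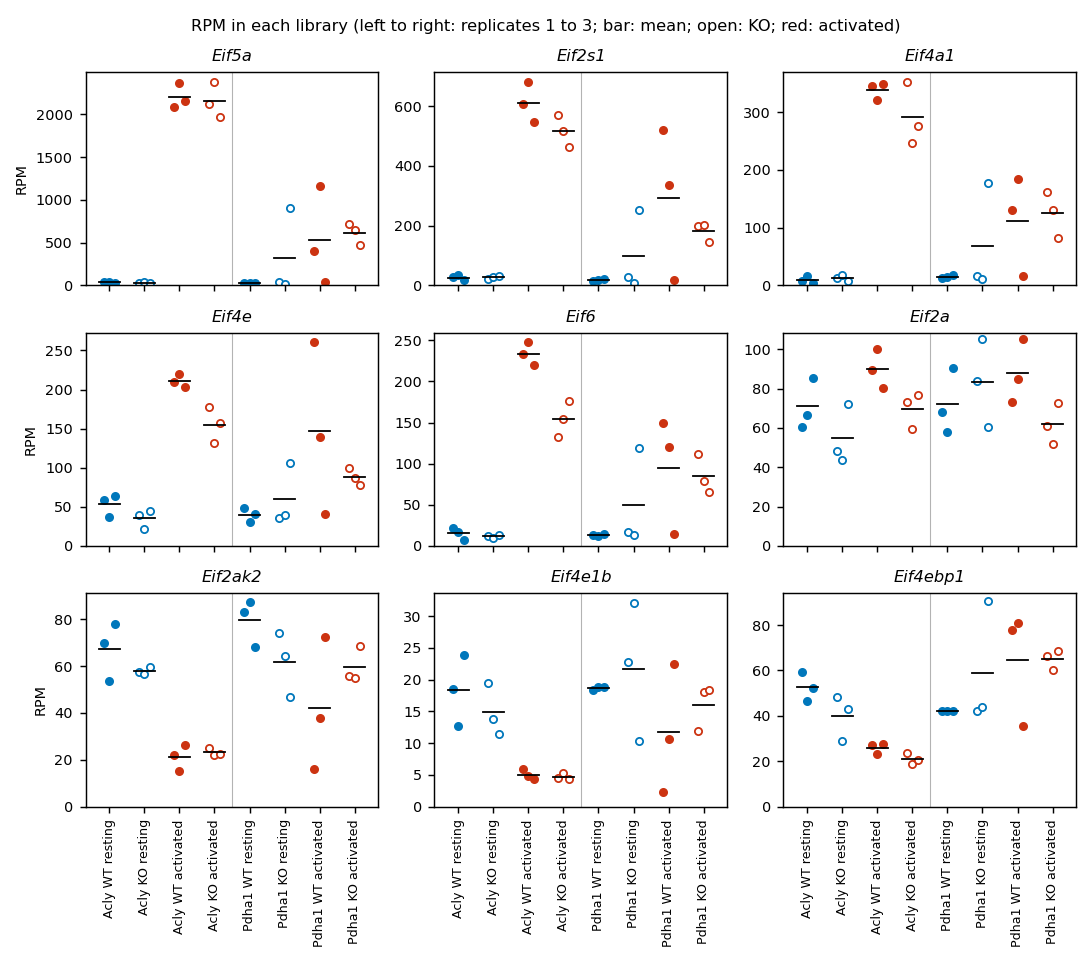
RPM of 9 initiation factor genes in each of the 24 libraries, 3 points per group in replicate order, with the mean as a bar, open points for KO and red points for activated libraries. In the Acly cohort the first 5 genes are higher and the last 3 lower after activation, and Eif2a overlaps. In the Pdha1 cohort 1 point of KO resting and 1 of WT activated lie with the other state in most panels.

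Loss of Acly moved no initiation factor past the threshold in resting cells. Of the 55 members, 0 were called by limma, beside 0% of all genes, and 4 had an unadjusted p under 0.05, beside 5.57% of all genes. edgeR and DESeq2 also called 0 members. The gene with the smallest p was Eif2d, at 0, 4.23 and 0 RPM in WT at rest and 4.57, 5.32 and 3.78 RPM in KO at rest. Its log2 difference was 2.25 ± 0.63 (adjusted p = 0.461, limma). Of 24 alternatives, 1 called it, the fit without WT resting 2 (adjusted p = 0.0249), the sole resting WT library with any count. The other 3 were Eif2s2 (0.65 ± 0.28), Eif4e (-0.61 ± 0.27) and Eif3j2 (-1.15 ± 0.56). The median over the members was -0.09.

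In activated cells 0 members were called between Acly KO and WT by limma, by edgeR and by DESeq2, beside 0.00639% of all genes called by limma. An unadjusted p under 0.05 was reached by 2 members, beside 3.47% of all genes. The log2 difference was negative for 51 of 55 members, with a median of -0.23 over the members and -0.05 over all genes tested, and 48 members lay below that median of all genes. Eif3c, Eif3e, Eif5 and Eif2ak2 were the 4 that were not negative. All 3 KO libraries lay below all 3 WT libraries for 16 members (29.1%), beside 7.38% of all genes. The sum over the members was 9828 to 10893 RPM in WT and 9197 to 9624 RPM in KO, with no overlap, and as a share of protein-coding RPM it was 1.36% to 1.46% in WT and 1.23% to 1.30% in KO.

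The sizes were small against the error of single genes. Under the 24 alternatives, 40 to 52 members were negative, and 38 to 51 lay below the median of all genes in the same fit. The median over the members ran from -0.32 to -0.10. It was -0.20 without WT activated 1, with 44 negative, and -0.32 without WT activated 3, with 52 negative. The receptor genes did not separate the groups, with 30101 to 40314 RPM in WT and 31451 to 40962 RPM in KO. The 9 CD4 T cell markers summed to 1895 to 2186 RPM in WT and to 1416 to 1463 RPM in KO, with no overlap. Of the 9, 0 were at 0 throughout a group, 0 had a positive log2 difference and 1 was called lower by limma. Thy1 held 472, 415 and 331 RPM in WT and 179, 157 and 161 RPM in KO. The 7 B cell markers summed to 98.5 to 143 RPM in WT (Cd79b at 0 in all WT libraries) and to 118 to 157 RPM in KO. Of these 7, 6 were positive and 0 were called. The 7 CD8 and NK cell markers summed to 29.1 to 45.9 RPM in WT and to 52.3 to 63.7 RPM in KO (Ncr1 at 0 in all KO libraries). That gap lay in Eomes, at 18, 8.69 and 10.6 RPM in WT and 32.6, 37.2 and 20.4 RPM in KO, while 3 of the 6 genes tested were positive and 0 were called. Of the sex-linked genes, Xist gave 3.99, 9.48 and 63.9 RPM in WT replicates 1 to 3 and 6.8, 55.9 and 132 RPM in those of KO. The levels of Ddx3y were 74.4, 93.6 and 5.28 RPM in the same WT replicates and 78, 1.76 and 4.28 RPM in KO. Xist was thus high and Ddx3y low in 1 WT and 2 KO libraries. Of the lists of other translation genes, 0 genes were called. The log2 difference was positive for 3 of 18 initiation factors and regulators without an Eif symbol and 6 of 15 elongation and release factors. It was positive for 4 of 14 signalling genes and 1 of 10 mitochondrial factors. The part of the marker lists or of the sex-linked difference in the lower level of the initiation factors was not tested.

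Both members with an unadjusted p under 0.05 belonged to eIF1, and their groups did not overlap. Eif1a, the autosomal eIF1A gene, stood at 98.9, 84.7 and 85.5 RPM in WT after activation and at 59.4, 47.9 and 50.5 RPM in KO after activation. Its log2 difference was -0.77 ± 0.37 (95% interval -1.51 to -0.02, adjusted p = 1, limma). Eif1ad, an eIF1A-like protein whose exons overlap those of Banf1 on the other strand, stood at 60.2, 50.1 and 58.6 RPM in WT and 31.1, 35.4 and 33.3 RPM in KO, a difference of -0.75 ± 0.33 (adjusted p = 1, limma). Eif6 stood at 234, 247 and 219.5 RPM in WT and 133, 154 and 177 RPM in KO, also without overlap, a difference of -0.60 ± 0.30 (adjusted p = 1, limma). Eif4e was lower in all 9 pairs at -0.45 ± 0.27. For Eif5a the difference was -0.03 ± 0.22 with a 95% interval of -0.47 to 0.40, and for Eif1 it was -0.01 ± 0.25 with an interval of -0.52 to 0.51.

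**Figure D4:**
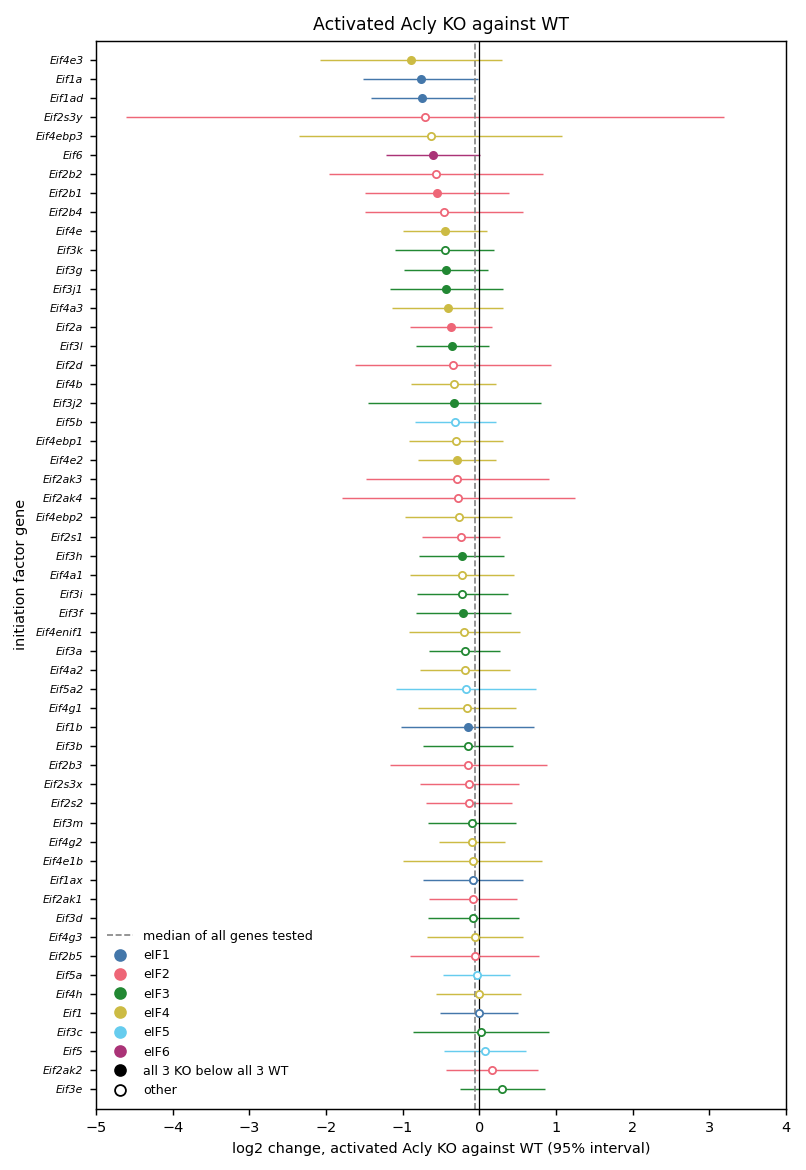
Log2 difference of each of the 55 genes between activated Acly KO and WT cells, with its 95% interval, ordered from the most negative at the top. Colours give the factor number, filled points mark the 16 genes whose 3 KO values all lie below the 3 WT values, and the dashed line is the median of all genes tested, at -0.05.

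Whether activation moved the members differently in Acly KO and WT cells was tested by the interaction of genotype and activation. 0 members were called by limma, by edgeR and by DESeq2, beside 0% of all genes, and 2 had an unadjusted p under 0.05, beside 4.19% of all genes. They were Eif2d (-2.59 ± 0.90, adjusted p = 1, limma) and Eif4e3 (-1.85 ± 0.83, adjusted p = 1, limma). For the kinase Eif2ak2, which fell in both genotypes, the interaction was 0.36 ± 0.42, with a 95% interval of -0.48 to 1.20.

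In the Pdha1 cohort with all 12 libraries, 0 members were called on activation of WT cells by limma, beside 0% of all 30357 genes tested. An unadjusted p under 0.05 was reached by 23 members (22 higher, 1 lower), beside 14.2% of all genes in either direction, 7.73% higher and 6.49% lower. The median log2 change was 1.64. DESeq2 on recovered counts called 28 members, all higher, beside 6.33% of all genes, and edgeR called 0. Without the library labelled WT activated 3 and the library labelled KO resting 3, limma called 40 members higher and 2 lower, beside 14.9% and 12.1% of the genes then tested. Leaving out WT activated 3 alone gave 32 higher and 2 lower, beside 9.48% and 5.28%.

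Eif5a stood at 26.5, 24.1 and 31.7 RPM in WT at rest and at 407, 1162 and 35.5 RPM in WT activated 1 to 3. In KO it stood at 42.8, 10.1 and 908 RPM at rest and at 717, 643 and 468 RPM after activation. WT activated 3 was thus at the resting level and KO resting 3 above every activated KO library. With all libraries the log2 change was 3.21 ± 1.60 in WT and 3.01 ± 1.60 in KO, and without both it was 4.63 ± 0.53 (adjusted p = 1.28e-05, limma) and 4.81 ± 0.53 (adjusted p = 5.23e-05). Eif2s1 showed the same order, at 15.6, 16.7 and 21.1 RPM in WT at rest, 519.8, 336 and 19.3 RPM in WT after activation, 28.7, 8.44 and 253 RPM in KO at rest and 197, 201 and 145 RPM in KO after activation. Its log2 change was 3.06 ± 1.36 in WT with all libraries and 4.53 ± 0.44 (adjusted p = 2.04e-06, limma) without both.

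Activated Pdha1 KO cells had 0 members called by limma with all libraries, beside 0% of all genes, and 2 with an unadjusted p under 0.05, Eif2b5 and Eif4g1, beside 2.88% of all genes. Without both doubtful libraries 28 members rose and 0 fell, beside 7.0% of all genes called higher. The kinase Eif2ak2 stood at 83.2, 87.6 and 68.3 RPM in WT at rest and 16, 37.8 and 72.3 RPM in WT after activation. KO cells held 74.1, 64.4 and 46.7 RPM at rest and 55.9, 55.1 and 68.5 RPM after activation. Without both libraries it fell in WT, at -1.67 ± 0.38 (adjusted p = 0.00462, limma), and was -0.21 ± 0.38 (adjusted p = 0.799) in KO, where it was not called. The interaction for Eif2ak2 was not called either, so a difference between the genotypes is not shown. Eif4e1b likewise fell in WT without both libraries, at -1.79 ± 0.51 (adjusted p = 0.0175, limma).

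Between Pdha1 KO and WT cells, 0 members were called by limma at rest, after activation or in the interaction, beside 0% of all genes in each. An unadjusted p under 0.05 was reached by 2 members at rest, Eif3m and Eif4g1, beside 2.1% of all genes. After activation it was 0 members, beside 2.82%, and in the interaction 0 members, beside 2.31%. edgeR and DESeq2 called 0 members in each. Without the library labelled KO resting 3, the median over the members at rest moved from 0.60 to 0.08. After activation it moved from 0.06 to -0.66 without the library labelled WT activated 3. The sign of the median thus turned with that library, and 0 members were called either way.

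The 4E-binding protein gene Eif4ebp1 was not called lower on activation in the Pdha1 cohort. It stood at 42.3, 42 and 42.3 RPM in WT at rest, 77.8, 81 and 35.5 RPM in WT after activation, 42, 44 and 90.5 RPM in KO at rest and 66.4, 60.3 and 68.5 RPM in KO after activation. WT activated 1 and 2 lay above all 3 resting WT values and WT activated 3 below them, while in the Acly cohort all activated values lay below the resting ones. The log2 change in WT was 0.52 ± 0.42 with all libraries and 0.90 ± 0.33 (adjusted p = 0.0494, limma) without both, the only alternative of 26 that called it. The difference between the cohorts was tested in a fit of all 24 libraries and was -1.54 ± 0.51 (Acly minus Pdha1, adjusted p = 0.393, limma), so it was not called. It was -1.92 ± 0.45 (adjusted p = 0.0663) without both libraries, and the only alternative that called it left WT activated 1 out as well. With all 24 libraries 0 members were called by limma, edgeR or DESeq2, beside 0.0453% of all genes, and 10 had an unadjusted p under 0.05, beside 8.22% of all genes. Cohort and the levels of erythroid markers differ together here and cannot be told apart.

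The sum over the members was mostly low where that of the receptor genes was high. The resting libraries of both cohorts, apart from the library labelled Pdha1 KO resting 3, held 955 to 1437 RPM of initiation factors at 95330 to 109575 RPM of receptors. The library labelled Pdha1 WT activated 3 fell among them, at 1199 RPM and 105375 RPM. Activated Pdha1 KO libraries held 3088 to 4453 RPM of initiation factors at 75403 to 89326 RPM of receptors, and activated Acly WT libraries 9828 to 10893 RPM at 30101 to 40314 RPM. Pdha1 WT activated 1 had the lowest receptor sum of all libraries, 26381 RPM, but held 7398 RPM of initiation factors, fewer than any activated Acly library. Both sums are shares of the same library total, and what part of the difference between cohorts follows from the background was not tested.

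**Figure D5:**
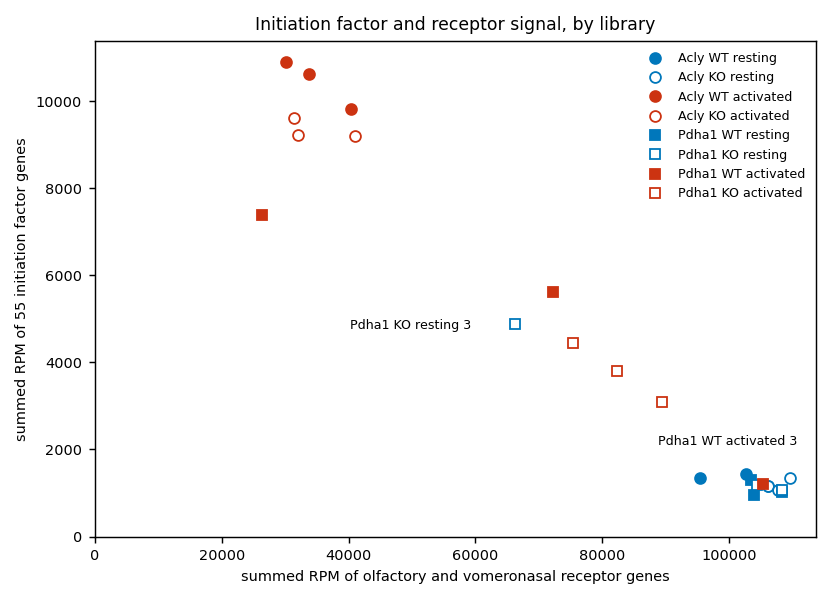
Summed RPM of the 55 initiation factor genes (y axis) against the summed RPM of the 1685 receptor genes (x axis), 1 point per library, with colours for state, shapes for cohort and open points for KO. Resting libraries sit at the lower right, activated Acly libraries at the upper left and most activated Pdha1 libraries between them, and the 2 libraries that go against their labels are named.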

How the data were processed

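The table that the authors deposited holds 46981 mouse Ensembl genes for 24 samples as RPM, which add up to 1000000 in each column. GRCm38 and mm10 are named in the submitters' processing notes, and the sources used here name no aligner, counter or annotation. Per the labels' protocols, stranded libraries of total RNA, depleted of ribosomal and globin transcripts, were read from 1 end over 75 bases. Every value above 0 in the deposited table came out as a whole count (100.0%, tolerance 0.01) after inverting a formula that corrects for repeated use of 4096 possible 6-base identifiers. GENCODE M21 matched 46206 rows.

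Members, lists and tests were chosen with earlier results of these data known. Tests used limma 3.58.1 (trend, robust) in R 4.3.3 on log2(RPM + 0.5), keeping genes that reached 1 RPM in 3 or more libraries of the fit, with 12 libraries and 4 groups per cohort and all 24 libraries for the difference between cohorts. P-values were adjusted by Benjamini-Hochberg over all genes tested, with 0.05 as the threshold. The pseudocount understates changes of genes near the floor. Alternatives were other pseudocounts, filters and scalings, a replicate term, edgeR 4.0.16 and DESeq2 1.42.0 on recovered counts, and leaving out libraries. The counts given to edgeR and DESeq2 kept the correction for repeated identifiers. Library totals and counts of single genes in the text are those before that correction. Given with the value in each library are the 2 genes per factor number with the smallest p in activated Acly WT cells, genes that fell, genes with p under 0.05 and no overlap between activated Acly KO and WT, the kinases, the eIF2 gamma pair, Eif4e and its binding proteins, and the eIF4A and eIF5A paralogs. Eif2a, Eif2b5, Eif2d, Eif4e2, Eif4e3, Eif4g1, Eif4g3 and Eif5 were singled out after their values were seen. Scripts were tested on simulated data.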

Additional observations from a re-analysis of the deposited data

Results flagged for a closer look

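In Acly WT cells every activated value of the cap-binding paralog Eif4e3 lay above every resting value, and in KO cells every activated value lay below every resting value. WT cells held 2.32, 2.82 and 2.98 RPM at rest and 5.98, 5.53 and 5.28 RPM after activation, and KO cells 4.57, 5.32 and 7.57 RPM and 3.78, 2.64 and 2.14 RPM. The difference between the 2 log2 changes was tested as an interaction and was -1.85 ± 0.83 (adjusted p = 1, limma), so it did not pass the threshold. All resting WT values were at or under the floor that a count of 0 allows.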

How the results depend on the processing

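The total of called members in each Acly activation contrast stayed within 1.5 times of the main one in each of 24 alternatives, with 42 to 47 risen and 2 or 3 fallen in WT and 40 to 47 risen in KO. The 3 called falls in KO became 1 in DESeq2, 2 under TMM-style scaling, in edgeR, without KO resting 1 and without KO activated 2, 4 in limma without trend and robust and without KO activated 3, and 5 under scaling to protein-coding genes. Leaving out 1 library gave 46 to 48 calls in WT and 45 to 48 in KO. In resting Acly KO against WT, leaving out 1 library gave 0 to 1 calls. In Pdha1 WT activation, DESeq2 called 28, leaving out 1 library gave 0 to 34, leaving out KO resting 3 and WT activated 3 gave 42, and leaving out WT activated 1 as well gave 31. In Pdha1 KO activation those last fits gave 28 and 30, beside 7.15% and 10.4% of the genes then tested. The last fit left 1 WT activated library, so its count of 31 in Pdha1 WT activation rests on that library and no conclusion is drawn from it. In the difference between cohorts, leaving out 1 library gave 0 to 1, and leaving out the 3 Pdha1 libraries gave 1. The causes were not tested beyond the change of samples itself.

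Scaling moved the median log2 change of all genes in Acly WT activation by 0.28 under TMM-style scaling and by -0.28 under scaling to protein-coding genes. Signs turned in genes that were not called, and in Eif4e2. In WT, Eif2a was -0.40 under quantile normalization and -0.14 under scaling to protein-coding genes, and Eif4e2 was -0.018 under quantile normalization. Eif2s3y in WT was 0.0036 with a pseudocount of 1, 0.086 under TMM-style scaling, 1.32 in edgeR, 1.28 in DESeq2, and -1.28 to 1.68 with 1 library left out (positive without WT resting 1, at 0.18, and without WT activated 3). In KO, Eif2a was -0.18 and -0.16 under the same 2 scalings, Eif5a2 was -0.073 under scaling to protein-coding genes, and Eif2s3y was 0.30 in edgeR, 0.23 in DESeq2, and -1.68 to 0.081 with 1 library left out (positive without KO resting 1, at 0.075, and without KO activated 3). Eif2ak4 in KO was 0.20 under TMM-style scaling, 0.021 under quantile normalization, 0.36 in edgeR, 0.34 in DESeq2, and -0.72 to 0.22 with 1 library left out (positive without KO resting 1, at 0.021, and without KO activated 2).

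The labels do not say that replicate numbers pair the samples. In the Acly cohort all 18 same-numbered pairs from different groups deviated with a positive correlation (0.025 to 0.22, 4 over 0.1), other pairs had -0.18 to 0.084, and in 35 of 36 comparisons of a library with another group its best correlated library had its own number. Xist and Ddx3y also matched by number between the resting and activated libraries of a genotype. This is a hint of pairing from the data, not the design. In the Pdha1 cohort same-numbered pairs had -0.81 to 0.50. With a replicate block the called members were 49 in Acly WT activation, 47 in Acly KO activation and 0 in the other contrasts.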
